A study of Mus musculus with 9 samples.

Results

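The erythroid genes are genes of red cells and of the cells that make them, measured here in whole olfactory mucosa. They were taken by name from a list of 27: globin chains, enzymes and transporters of haem synthesis, proteins of the red cell membrane, blood group carriers, erythroid regulators, and enzymes of the mature red cell. The arrays held a probe for 21 of the 27, among 19084 named genes in all. Hba-a1, Hba-a2, Hbb-b2, Hbb-bs, Hbb-bt and Ahsp had no matching probe symbol and were not analysed here. Each gene stands for its brightest probe over 9 arrays, and the rule for membership uses no measured value.

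The 9 arrays were 1-colour arrays of total RNA from olfactory mucosa of male C57BL/6 mice aged 6 to 8 weeks, wild-type and inbred, with 3 arrays in each of 3 groups. The WK2 mice had dexamethasone, a synthetic glucocorticoid, every day for 2 weeks by intraperitoneal injection. The D1 mice had dexamethasone for 1 day, and the Ctrl mice had saline for 2 weeks. The labels give the route and the dose of 1 mg/kg beside WK2 and repeat neither for D1. They count 27 mice, 9 in each group, and the arrayed samples were picked by their expression of the olfactory marker protein gene. D1 and Ctrl therefore differ in how long injections lasted as well as in the drug. Whether the 3 arrays of a group stand for different mice is not in the labels. The p-values therefore measure only how far these arrays differ, and that difference can be technical.

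Red cells are made in the marrow by erythroblasts, which load themselves with globin and haem, rebuild their membrane around spectrin and an anion exchanger, and then expel the nucleus. The young cells that enter the blood, the reticulocytes, still carry globin and haem synthesis mRNA and lose it within days. The erythropoietin receptor and the transcription factors Gata1 and Klf1 drive this programme. Gata1 binds GATA sequences and Klf1 binds CACCC sequences, not only near the genes' starts. In a bulk tissue, fewer cells of a type and less RNA per cell cannot be told apart. Intensities are in the arbitrary units of the deposited table. They were not corrected for how well each probe binds, so levels are compared between arrays for 1 gene. Ranks and sums over genes describe probe signal and not amounts of RNA.

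All 16 markers of mature olfactory neurons had signal on every array, between 1871794 and 2605837 in sum, with a lowest single value of 21619.6. Array medians over all probes were 1202 (Ctrl replicate 2) to 1447 (WK2 replicate 1). Ctrl replicate 2 had the lowest value of the 9 arrays for 32.3% of all features. The WK2 replicate 3 array had the highest total signal of the 9. It had the highest value for 31.0% of all features and the lowest for 20.8%. On D1 replicate 2, an array on which most erythroid genes were high, 14 of the 16 neuron markers had their lowest value within D1. This held for 32.4% of all features. The median deviation of the markers there was -0.23 from the group mean (log2). On Ctrl replicate 2 most erythroid genes were also high. There 8 of the 16 markers had their highest value within Ctrl, which held for 28.3% of all features. The median deviation of the markers there was 0.02.

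The sequences just upstream of the members' starts are given first, for genes that varied alike from array to array and for some that did not. RefSeq promoters on GRCm38.p6 were matched for 15 of the 21 measured genes, and the 250 bases before each annotated start were searched. Hbb-b1, Fech, Slc25a37, Slc4a1, Car1 and Car2 are not among the 15. Motifs were searched on both strands. A GATA match was AGATAA, its form with a leading T (TGATAA), its form with a closing G (AGATAG) or the form with both of these letters changed (TGATAG). The sequence CACCC was searched as such, and the NF-E2 class match was TGACTCA, which reads as TGAGTCA on the other strand. No matches of different kinds overlapped in the members' promoters. A GATA sequence was present in 10 of the 15 (66.7%), against 26.5% of all 32851 promoters. CACCC was present in 11 (73.3%), against 52.0% of all promoters. Both occurred in 8 (53.3%), against 11.8% of all promoters, and the NF-E2 class sequence in 2 (13.3%), against 4.46%. A match is a description of these letters and not a site of binding.

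The promoters of 5 genes that moved together across the arrays follow, each written 5′ to 3′ on the strand of its gene and ending at the base before the annotated start. Capitals mark the motifs. A match on the other strand appears as its reverse complement, so that a GATA sequence then begins with TTATC or CTATC and a CACCC sequence reads GGGTG. They are Alas2 (chrX:150547167-150547416, plus strand), Klf1 (chr8:84901732-84901981, plus strand), Trim10 (chr17:36869324-36869573, plus strand), Rhd (chr4:134864286-134864535, plus strand) and Hemgn (chr4:46404184-46404433, minus strand).
Alas2: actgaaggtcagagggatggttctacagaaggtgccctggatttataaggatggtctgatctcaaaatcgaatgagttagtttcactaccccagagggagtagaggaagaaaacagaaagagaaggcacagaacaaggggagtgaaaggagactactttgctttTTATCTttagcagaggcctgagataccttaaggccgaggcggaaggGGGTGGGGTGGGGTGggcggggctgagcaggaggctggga
Klf1: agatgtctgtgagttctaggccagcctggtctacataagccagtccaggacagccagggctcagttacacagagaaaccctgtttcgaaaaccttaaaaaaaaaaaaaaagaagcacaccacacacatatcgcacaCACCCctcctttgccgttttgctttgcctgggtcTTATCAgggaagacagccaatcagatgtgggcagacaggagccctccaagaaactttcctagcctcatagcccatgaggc
Trim10: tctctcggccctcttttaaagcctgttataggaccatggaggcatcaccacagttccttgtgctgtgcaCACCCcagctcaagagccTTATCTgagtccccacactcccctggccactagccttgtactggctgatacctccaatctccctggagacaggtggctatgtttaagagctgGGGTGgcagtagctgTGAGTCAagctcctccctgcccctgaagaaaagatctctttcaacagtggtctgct
Rhd: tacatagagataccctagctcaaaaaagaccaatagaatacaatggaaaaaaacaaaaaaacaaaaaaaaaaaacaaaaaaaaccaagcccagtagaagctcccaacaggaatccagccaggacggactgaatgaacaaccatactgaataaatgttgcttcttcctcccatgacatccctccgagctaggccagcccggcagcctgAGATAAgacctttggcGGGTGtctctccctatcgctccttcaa
Hemgn: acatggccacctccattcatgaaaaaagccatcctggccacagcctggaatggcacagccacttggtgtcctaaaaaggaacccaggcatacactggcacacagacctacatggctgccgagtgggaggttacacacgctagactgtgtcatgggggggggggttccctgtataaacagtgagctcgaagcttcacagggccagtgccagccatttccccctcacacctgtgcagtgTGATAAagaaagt

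In Alas2 a GATA sequence on the opposite strand began 86 bases before the start, and 3 CACCC sequences on that strand stood side by side, within the last 40 bases. Klf1 had CACCC from 114 and an opposite-strand GATA sequence from 80 bases before its start. Trim10 held all 3 kinds, Rhd had a GATA sequence 43 bases and an opposite-strand CACCC 27 bases before its start, and the GATA sequence of Hemgn began 13 bases before its start. Bpgm (chr6:34476106-34476355, plus strand) and Tmod1 (chr4:46038972-46039221, plus strand) are shown beside them because their array values did not follow the others. Bpgm had none of the motifs in this window, and Tmod1 had CACCC on each strand with no GATA sequence. All 10 genes with a GATA sequence varied with Slc4a1, at Pearson r from 0.66 (Kel) to 0.98 (Trim10) over 9 arrays. Sptb, Tmod1 and Bpgm, which did not, had no GATA sequence, but neither did some genes that varied with Slc4a1. Tspan33 had no motif in its window but varied with Slc4a1 and Alas2 (r 0.72 and 0.78). Gata1 had CACCC without a GATA sequence and varied with Slc4a1 (r 0.92). Whether motifs and array values go together was not tested.
Bpgm: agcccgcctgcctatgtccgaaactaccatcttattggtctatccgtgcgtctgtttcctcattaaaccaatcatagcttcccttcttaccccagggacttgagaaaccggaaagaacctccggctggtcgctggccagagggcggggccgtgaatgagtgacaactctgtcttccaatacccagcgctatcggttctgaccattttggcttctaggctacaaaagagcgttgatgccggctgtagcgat
Tmod1: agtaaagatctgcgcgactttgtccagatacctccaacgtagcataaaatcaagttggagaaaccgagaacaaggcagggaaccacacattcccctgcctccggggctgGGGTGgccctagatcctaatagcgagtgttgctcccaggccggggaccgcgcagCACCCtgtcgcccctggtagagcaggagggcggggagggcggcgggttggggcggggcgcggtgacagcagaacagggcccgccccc

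By limma at an adjusted p under 0.05, 0 of the 21 erythroid genes were called in any comparison, where 1.61% of the 23631 features were called in WK2 against Ctrl, 0.0% in D1 against Ctrl and 0.0931% in WK2 against D1. At an unadjusted p under the same number there were 0, 0 and 1 of the 21, where 29.7%, 2.0% and 19.2% of features were. The smallest adjusted p among the 21 was 0.172 in WK2 against Ctrl, 1.00 in D1 against Ctrl and 0.242 in WK2 against D1 (limma). What the genes did show was a large difference between arrays of the same group, which most of them shared. Within groups, the standard deviation of their log2 values had a median of 0.45, against 0.25 over all features. Of the 21, 18 were above that all-feature median and 10 were among the most variable 10% of features.

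The beta-globin gene Hbb-b1 codes for the adult beta chain of haemoglobin, the most abundant protein of the red cell. C57BL/6 mice carry near-identical adult beta-globin copies, so its probe cannot be assigned to 1 of them. Its intensity was 272206, 126909 and 246538 on the WK2 arrays, 175680.5, 216735 and 82196 on the D1 arrays and 91770.4, 169509 and 105138 on the Ctrl arrays. All 9 values belong to the brightest end of the arrays, where the mean of the probe exceeds 99.6% of features. Group means were 215218 ± 77547 in WK2, 158204 ± 68951 in D1 and 122139 ± 41564 in Ctrl (SD, n = 3 each). WK2 minus Ctrl was 0.79 ± 0.40 on the log2 scale (SE, 95% interval -0.11 to 1.69, adjusted p = 0.211, limma), and D1 minus Ctrl was 0.31 ± 0.40 (interval -0.59 to 1.21). The groups overlapped: WK2 replicate 2 was below Ctrl replicate 2, and D1 replicate 3 had the lowest value of all.

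Alas2, the enzyme of the first and rate-limiting step of haem synthesis in erythroid cells, had 33562, 17977 and 12299.6 on the WK2 arrays, 16989, 23382 and 8376 on the D1 arrays and 9744, 52157 and 10483 on the Ctrl arrays. Ctrl replicate 2 was the highest of all 9 arrays and the other 2 Ctrl arrays were among the 3 lowest, so the groups overlapped completely. The highest array exceeded the lowest 2.73-fold within WK2, 2.79-fold within D1 and 5.35-fold within Ctrl. The estimated differences were 0.16 ± 0.64 for WK2 minus Ctrl (95% interval -1.27 to 1.59), -0.23 ± 0.64 for D1 minus Ctrl and 0.38 ± 0.64 for WK2 minus D1 (log2, SE). The intervals leave room for a change of more than 2-fold in either direction.

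Fech, the enzyme that puts iron into the porphyrin ring in every cell that makes haem, did not share this spread. Its brightest probe had 26444, 18946 and 23638 on the WK2 arrays, 19880.4, 22135 and 19525 on the D1 arrays and 20024, 22229.6 and 21216 on the Ctrl arrays. The highest of the 9 arrays exceeded the lowest by 1.4-fold, and WK2 minus Ctrl was 0.11 ± 0.16 (log2, SE). A second, dimmer Fech probe had 3925, 2793 and 3000.0 on the WK2 arrays, 3321, 4035 and 4016 on the D1 arrays and 4505, 5612 and 4173 on the Ctrl arrays, lower in WK2 than in Ctrl on average (-0.55 on the log2 scale), so the probes of this gene differed in sign.

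Slc25a37, the mitoferrin that carries iron into the mitochondria of erythroid cells, had 22770.0, 21510.2 and 20226 on the WK2 arrays, 34192, 35707 and 23418 on the D1 arrays and 19746, 37705 and 29293 on the Ctrl arrays. All 3 WK2 arrays were below all 3 D1 arrays, while the Ctrl arrays spanned both. WK2 minus D1 was -0.51 ± 0.24 (log2, SE, adjusted p = 0.279, limma).

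**Figure D1:**
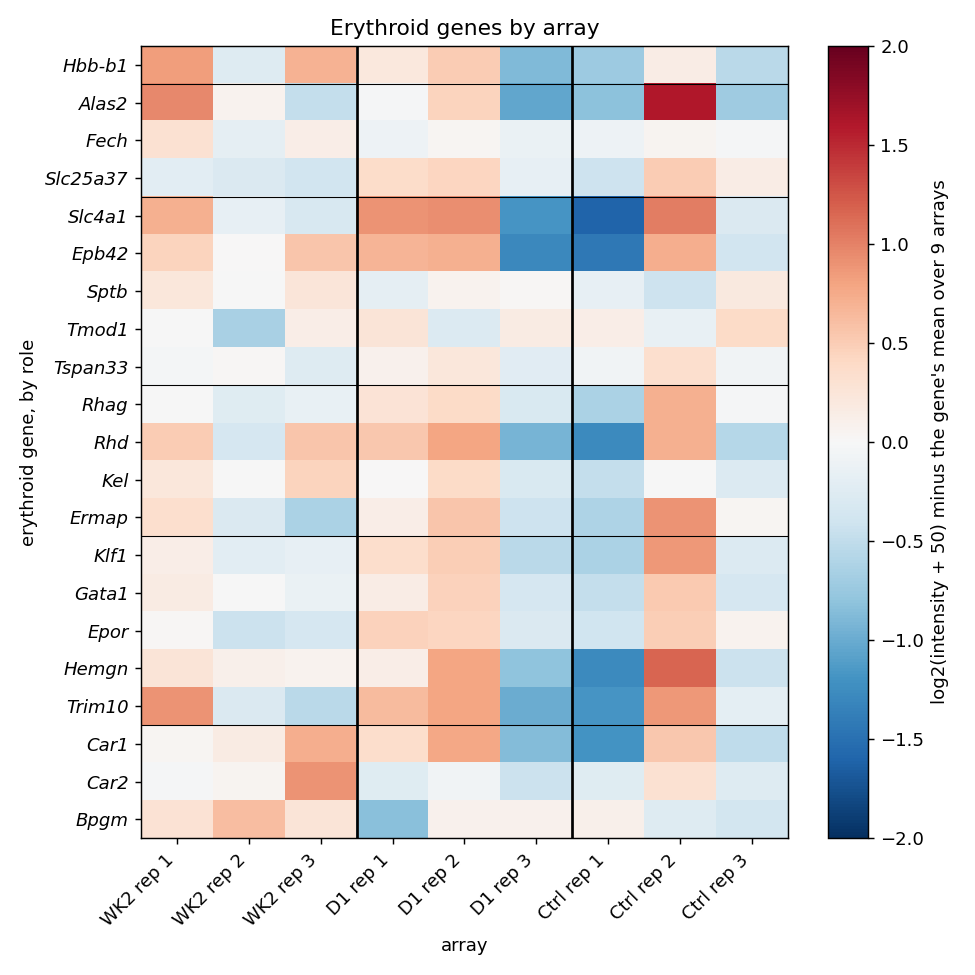
Log2(intensity + 50) of the 21 measured erythroid genes (rows, ordered by role) on the 9 arrays (columns, WK2, D1 and Ctrl), each minus the gene's mean over the 9 arrays. D1 replicate 3 and Ctrl replicate 1 are low and D1 replicate 2 and Ctrl replicate 2 high for most genes, while Sptb, Tmod1 and Bpgm do not follow.

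Of the 5 membrane genes, Slc4a1 and Epb42 had a wide spread between arrays, and Sptb and Tmod1 varied in another way. Slc4a1, the chloride and bicarbonate exchanger of the red cell membrane, had 7496, 4067 and 3679.7 on the WK2 arrays, 8568, 8794 and 1995 on the D1 arrays and 1474, 9367 and 3747 on the Ctrl arrays. The highest array exceeded the lowest 2.04-fold in WK2, 4.41-fold in D1 and 6.36-fold in Ctrl, with D1 replicate 3 and Ctrl replicate 1 at the bottom. Group means were 5081 ± 2101 in WK2, 6452 ± 3862 in D1 and 4862 ± 4063 in Ctrl (SD, n = 3 each), and WK2 minus Ctrl was 0.36 ± 0.69 (log2, SE, 95% interval -1.18 to 1.91).

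Epb42, which ties that exchanger to the membrane skeleton, had 732, 529 and 796 on the WK2 arrays, 876, 888 and 186 on the D1 arrays and 163, 899 and 393 on the Ctrl arrays. Its low arrays were again D1 replicate 3 and Ctrl replicate 1, and the differences were 0.70 ± 0.60 for WK2 minus Ctrl and 0.40 ± 0.60 for D1 minus Ctrl (log2, SE). Sptb, the beta chain of erythroid spectrin, had 1077, 907 and 1085 on the WK2 arrays, 796, 954 and 930.0 on the D1 arrays and 811, 673 and 1044 on the Ctrl arrays, with no array standing apart. Tmod1, which caps the short actin filaments of the membrane skeleton, had 6165, 3933 and 6833 on the WK2 arrays, 7451, 5144 and 6941 on the D1 arrays and 6839, 5585 and 8066 on the Ctrl arrays. Its lowest array was WK2 replicate 2, and Ctrl replicate 1 was not low. Tspan33, a tetraspanin of erythroid progenitors, ranged from 4381 to 5353 in WK2, 4463 to 6162 in D1 and 4987 to 6667 in Ctrl. For Sptb, Tmod1 and Tspan33 the WK2 minus Ctrl differences were 0.28, -0.30 and -0.16 on the log2 scale, each within 2 standard errors of 0.

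Among carriers of blood group antigens, Rhd, Kel, Rhag and Ermap all had their lowest D1 value on replicate 3 and their lowest Ctrl value on replicate 1. Rhd, the mouse Rh protein, had 3165, 1728 and 3269 on the WK2 arrays, 3231, 3831 and 1135 on the D1 arrays and 886, 3617 and 1462 on the Ctrl arrays. Its Ctrl values spanned its WK2 values, and WK2 minus Ctrl was 0.62 ± 0.55 (log2, SE, adjusted p = 0.439, limma). Kel, the Kell endopeptidase, had 3074, 2602 and 3594 on the WK2 arrays, 2642, 3455 and 2121 on the D1 arrays and 1873, 2625 and 2169 on the Ctrl arrays. WK2 and Ctrl overlapped by little: WK2 replicate 2 lay just below Ctrl replicate 2, and the difference of 0.47 ± 0.21 (95% interval -0.01 to 0.94) had the smallest adjusted p of any erythroid gene, 0.172. Rhag, the partner of Rh proteins in the membrane, was the dimmest member, at 158 to 194 in WK2, 149 to 269.9 in D1 and 109 to 352 in Ctrl. Ermap, which carries an erythroid blood group antigen in humans, was at 442 to 909 in WK2, 523 to 1061 in D1 and 443 to 1369.5 in Ctrl, and Ctrl replicate 2 was the highest array for both.

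**Figure D2:**
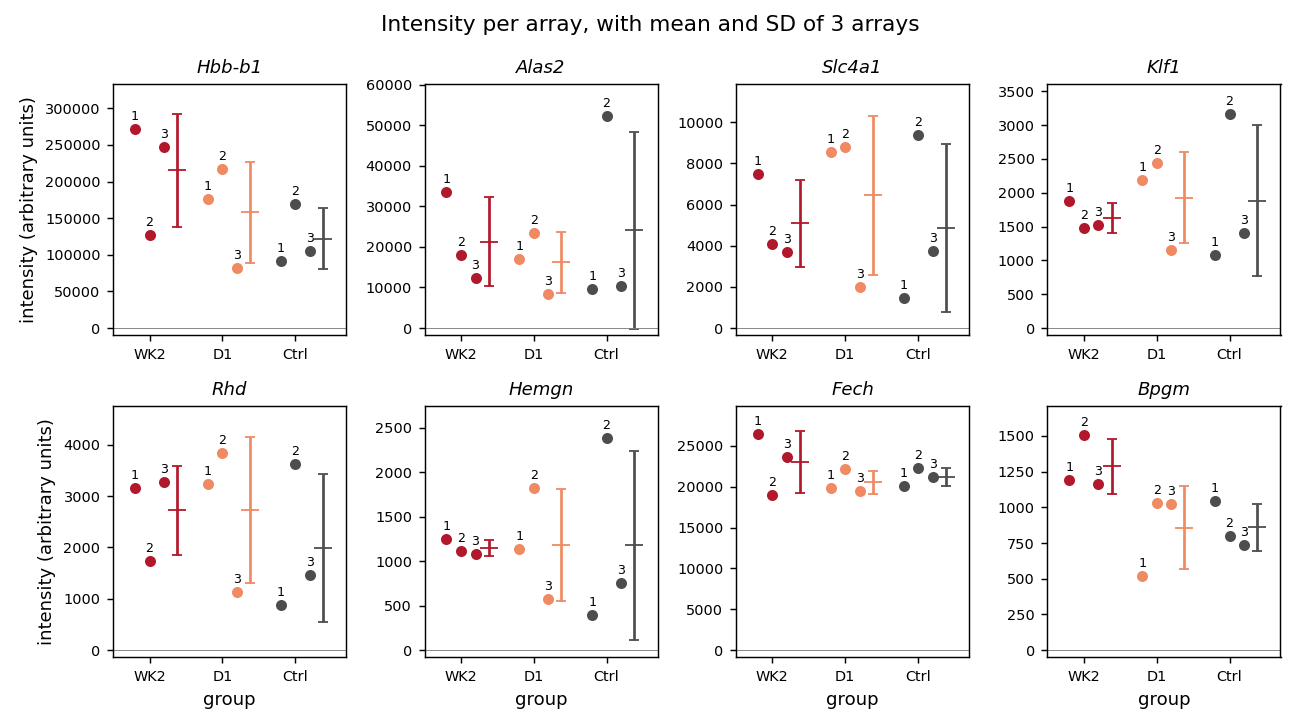
Intensity (arbitrary units, linear axis) of 8 erythroid genes on each array (points) with the mean and SD of 3 arrays (bars), for WK2, D1 and Ctrl from left to right. The groups overlap for Slc4a1 and Alas2, whose Ctrl arrays spread 6.36-fold and 5.35-fold, while the 9 Fech values stay within 1.4-fold and the WK2 arrays of Bpgm stand above the others.

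The 5 regulators varied with Slc4a1 across the arrays, at r of 0.83 to 0.98. Klf1, the erythroid factor that binds CACCC sequences, had 1876, 1475 and 1521 on the WK2 arrays, 2192, 2437 and 1160.4 on the D1 arrays and 1082, 3164 and 1409 on the Ctrl arrays. Gata1, the master factor of the erythroid and megakaryocytic lineages, had 565, 498 and 453 on the WK2 arrays, 565, 711 and 388 on the D1 arrays and 346, 742 and 386 on the Ctrl arrays. In both genes Ctrl replicate 1 was the lowest and Ctrl replicate 2 the highest of all 9 arrays, with D1 replicate 3 low within D1. Their WK2 minus Ctrl differences were -0.07 ± 0.38 and 0.10 ± 0.28 (log2, SE).

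Hemgn, a nuclear protein of blood progenitors, had 1243, 1112 and 1082 on the WK2 arrays, 1131, 1826 and 570.2 on the D1 arrays and 399, 2383 and 749 on the Ctrl arrays. The WK2 arrays lay within 1.15-fold of each other, whereas the highest array exceeded the lowest 3.2-fold in D1 and 5.97-fold in Ctrl. Trim10, a RING finger protein of late erythroid differentiation, had 1111, 460.4 and 380.3 on the WK2 arrays, 917, 1030.4 and 262 on the D1 arrays and 223, 1092 and 492 on the Ctrl arrays. Its WK2 arrays were less alike, with replicate 1 above the other 2. Epor, the erythropoietin receptor, was at 403 to 573 in WK2, 449 to 792 in D1 and 415 to 806 in Ctrl, and WK2 minus D1 was -0.45 ± 0.27 (log2, SE, adjusted p = 0.354, limma).

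The 3 enzymes of the mature red cell did not vary alike: r was 0.65 for Car1 with Car2, 0.30 for Car2 with Bpgm and -0.03 for Car1 with Bpgm. Car1, the carbonic anhydrase found mainly in red cells, had 991, 1085 and 1624 on the WK2 arrays, 1244, 1678 and 509 on the D1 arrays and 392, 1419.5 and 661 on the Ctrl arrays. Its second probe, almost as bright, had 841, 879 and 1241 on the WK2 arrays, 1118, 1278 and 570.2 on the D1 arrays and 477, 2396 and 696 on the Ctrl arrays. WK2 minus Ctrl was 0.70 on the first probe and 0.05 on the second (log2), while another probe was near the floor of the arrays, between 15.1 and 170.0. Both brighter probes had Ctrl replicate 1 low and Ctrl replicate 2 high within their group.

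Car2, a carbonic anhydrase that many epithelia also make, had 20924, 22102 and 39773 on the WK2 arrays, 17916, 20211 and 15853 on the D1 arrays and 18071, 26296 and 17765 on the Ctrl arrays. All WK2 arrays were above all D1 arrays, with WK2 replicate 3 far above the rest, and WK2 minus D1 was 0.56 ± 0.26 (log2, SE, adjusted p = 0.269, limma). Bpgm makes the bisphosphoglycerate that lowers the oxygen affinity of haemoglobin, and had 1191, 1507 and 1161 on the WK2 arrays, 520.4, 1032 and 1023 on the D1 arrays and 1042, 799.5 and 736 on the Ctrl arrays. Its WK2 arrays did not overlap with either of the other groups. WK2 minus Ctrl was 0.56 ± 0.26 (log2, SE, 95% interval -0.01 to 1.13, adjusted p = 0.174) and WK2 minus D1 was 0.61 ± 0.26 (interval 0.04 to 1.18, unadjusted p = 0.0392, adjusted p = 0.242, limma). That unadjusted p was the only one under 0.05 among the erythroid genes.

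In the main fit, the members' differences lay close to those of the arrays as a whole. In WK2 against Ctrl 14 of 21 differences were above 0, with a median of 0.20 on the log2 scale, against 62.7% of all features and a median of 0.14. In D1 against Ctrl 14 were above 0, median 0.13, against 56.6% and 0.03. In WK2 against D1 11 were above 0, median 0.10, against 61.6% and 0.10. The comparisons with Ctrl share the same 3 control arrays. Quantile normalization moved the all-feature median of WK2 against Ctrl to 0.02 and that of the members to 0.14. With array weights the members' median was 0.44, against 0.08 over all features. Without Ctrl replicate 2 it was 0.52 against 0.08, and without Ctrl replicate 1 it was -0.22 against 0.17.

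Groups without overlap were rare among the members. In WK2 against Ctrl only Bpgm was higher on every WK2 array, where 23.8% of features were, and 0 members were lower, where 13.8% were. In D1 against Ctrl 0 members were separated either way, where 4.92% were higher and 5.19% lower. In WK2 against D1 Car2 and Bpgm were higher, where 18.7% of features were, and Slc25a37 was lower, where 12.6% were.

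**Figure D3:**
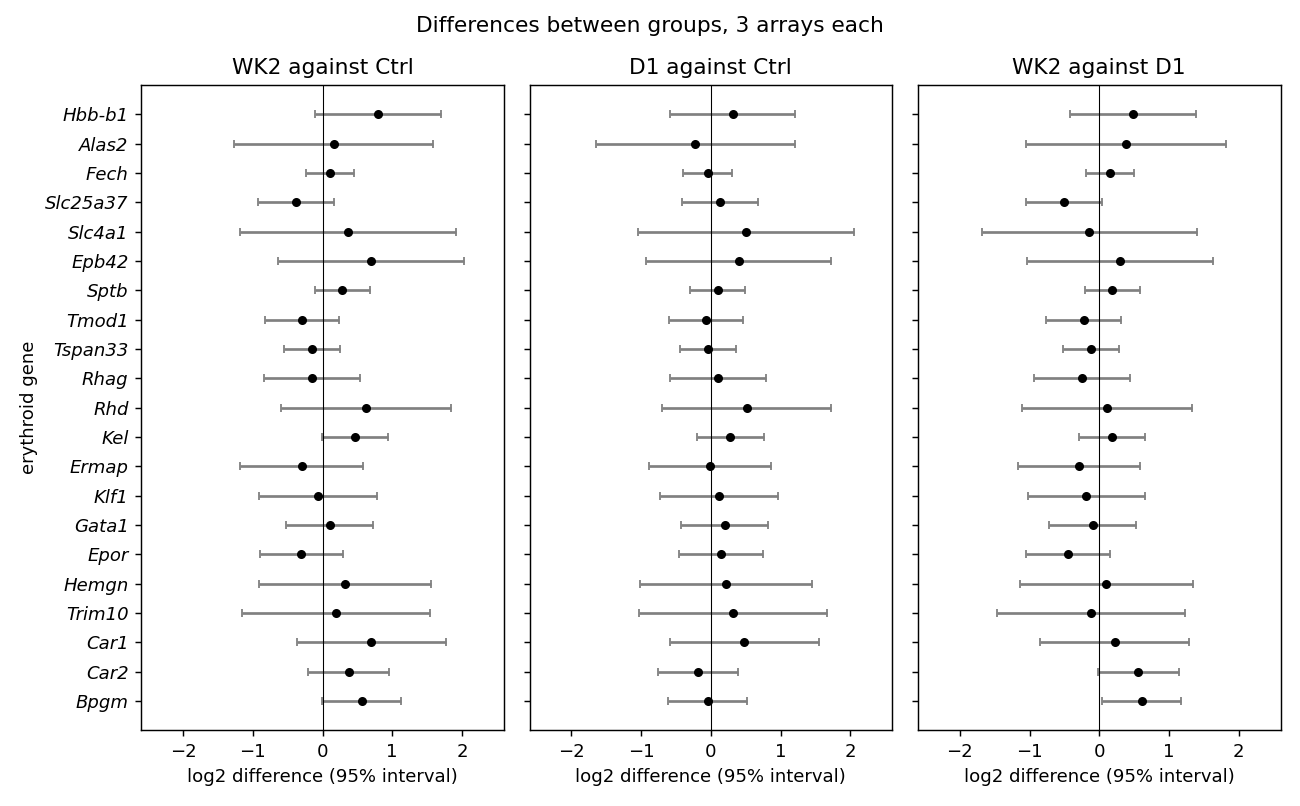
Log2 difference (points) and its 95% interval (bars) for each measured erythroid gene in WK2 minus Ctrl, D1 minus Ctrl and WK2 minus D1, from limma with 3 arrays per group. Each interval includes 0 except that of Bpgm in WK2 minus D1, and those of Slc4a1, Alas2, Trim10 and Epb42 are the widest.

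Single arrays decided the sign of the median. Without Ctrl replicate 1 the median was -0.22 in WK2 against Ctrl and -0.11 in D1 against Ctrl. Without Ctrl replicate 2 the medians were 0.52 and 0.45. Without D1 replicate 3 the median of WK2 against D1 was -0.31. In each of these fits 0 members were called.

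The array pattern was counted over the members. Within WK2, replicate 1 was highest for 12 of 21 genes, which held for 31.2% of all features, and the low values were divided between replicate 2 with 10 and replicate 3 with 9. Within D1, replicate 2 was highest for 19, against 36.8%, and replicate 3 lowest for 18, against 29.8%. Within Ctrl, replicate 2 was highest for 18, against 28.3%, and replicate 1 lowest for 16, against 20.4%. Over all 9 arrays, Ctrl replicate 2 was the highest and Ctrl replicate 1 the lowest for 11 genes each, where 10.2% and 3.18% of all features had them there.

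In size, the median deviation from the group mean over the 21 genes was 0.15, -0.16 and -0.08 on the WK2 arrays, 0.16, 0.37 and -0.49 on the D1 arrays and -0.50, 0.62 and -0.07 on the Ctrl arrays (log2). Over all features the same medians lay between -0.09 and 0.07. The medians of Ctrl replicates 1 and 2 were more than 1 log2 unit apart, and those of the WK2 arrays lay closest together. Summed over the 21 genes, intensity was 411357, 233831 and 373380.2 on the WK2 arrays, 302173, 358213 and 172173 on the D1 arrays and 180844, 349455 and 211702 on the Ctrl arrays, in which Hbb-b1 is the largest part.

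The members that carried this pattern resembled each other across the 9 arrays, where all genes of an array share 1 RNA extract and 1 scaling. As a description, the Pearson r of Slc4a1 with Trim10 was 0.98, with Klf1 0.94, with Epb42, Gata1 and Hemgn 0.92 each, and with Rhd 0.91. Hbb-b1 was most like Kel at 0.92 and Rhd at 0.91, and less like Alas2 at 0.64 and Slc25a37 at 0.21. Sptb, Tmod1 and Bpgm stood apart, with r of -0.16, -0.26 and -0.32 with Slc4a1. Fech and Car2 lay between, at 0.44 and 0.22.

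The 10 genes outside the list that were most like the mean of the brighter members over the 9 arrays had r between 0.92 and 0.95. They were Apol11b, Stx11, Nxpe2, Cfp, Tspo2, Med28, Icam4, Gp9, Nfe2 and Ctse. Icam4 is an adhesion molecule and Tspo2 a cholesterol-binding membrane protein of erythroblasts, and Nfe2 is the large subunit of the factor NF-E2 of erythroid cells and megakaryocytes. Nfe2 had 1408, 836 and 774 on the WK2 arrays, 1482, 2131 and 521 on the D1 arrays and 426, 1869 and 773 on the Ctrl arrays, with the low arrays D1 replicate 3 and Ctrl replicate 1 of the members. Tspo2 had 1444, 847 and 966 on the WK2 arrays, 1420.3, 1486 and 644 on the D1 arrays and 517, 1311 and 802 on the Ctrl arrays and showed the same low arrays. Gp9 is a platelet glycoprotein, and Cfp, properdin, is made by myeloid cells. The 10 genes were picked from all other named genes by this r, so its height was set by the choice.

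Other genes of the red cell and its pathways were read from lists of related genes. Of 8 globins outside the members, 1 fell in WK2 against Ctrl: Cygb, the cytoglobin of fibroblasts, with 6504, 4814 and 6432 on the WK2 arrays, 13509.7, 9743 and 12031 on the D1 arrays and 12551, 10688 and 14837 on the Ctrl arrays. The WK2 arrays lay below all others, and WK2 minus Ctrl was -1.09 (log2, adjusted p = 0.0413, limma), a call that ended (adjusted p 0.0645 to 0.148) on leaving out any 1 array other than WK2 replicate 1. The embryonic alpha-like chain Hba-x and the muscle globin Mb differed by 0.56 and 0.98 in WK2 against Ctrl (adjusted p = 0.108 and 0.0631).

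In 11 other genes of haem synthesis 0 were called in the main fit, with a median of -0.01 in WK2 against Ctrl. Alas1, the form of the first enzyme that all tissues use, had 66354, 75338 and 61363 on the WK2 arrays, 105634, 117801 and 107657 on the D1 arrays and 89766, 96032 and 92412 on the Ctrl arrays. Every WK2 array was below every array of the other groups, and the log2 difference was -0.46 against Ctrl (adjusted p = 0.0781) and -0.71 against D1 (adjusted p = 0.107, limma). Urod, a later enzyme, had the highest differences of the list in WK2, 0.77 against Ctrl and 0.81 against D1. The lowest difference of the list against Ctrl was -0.91.

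In the main fit no gene was called among 18 of the red cell membrane and 18 erythroid transcription factors and cofactors. The same held for 20 genes of reticulocyte maturation and red cell enzymes, 15 of iron handling and 8 of haem and haemoglobin scavenging. The WK2 minus Ctrl medians of these lists were -0.02, -0.32, 0.13, -0.01 and 0.53, in that order, against 0.14 over all features. The bright transcription list member Ldb1, a bridging cofactor of Gata1 complexes, had 36226, 34554 and 24481 on the WK2 arrays, 52552, 48962 and 48221 on the D1 arrays and 46188, 53774 and 51074 on the Ctrl arrays, with WK2 below the other groups (-0.68 against Ctrl, adjusted p = 0.0615, limma). Gpx1, the glutathione peroxidase of red cells and many tissues, differed by 0.74 in WK2 against Ctrl (adjusted p = 0.0631).

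Neutrophil and platelet markers varied with the erythroid genes from array to array, and B lineage precursor markers did so little. The 18 erythroid transcription genes had median deviations of -0.14, 0.23 and -0.08 on Ctrl and 0.07, 0.16 and -0.18 on D1 (log2). The 18 red cell membrane genes moved less, at -0.08, 0.03 and 0.05 on Ctrl and 0.04, 0.03 and -0.10 on D1. For 14 B lineage precursor genes the median deviation from the group mean was 0.08, -0.07 and -0.02 on the WK2 arrays, 0.05, 0.12 and -0.08 on the D1 arrays and -0.07, 0.03 and 0.04 on the Ctrl arrays (log2). For 24 neutrophil genes the median deviation from the group mean was 0.40, -0.10 and -0.27 on the WK2 arrays, -0.18, 0.97 and -0.83 on the D1 arrays and -0.80, 1.03 and -0.15 on the Ctrl arrays (log2). In WK2, replicate 1 was highest for 20 of the 24 (31.2% of all features) and the low values lay on replicates 2 and 3. In D1, replicate 2 was highest for all 24 (36.8% of all features) and replicate 3 lowest for 21 (29.8%). In Ctrl, replicate 2 was highest for 22 (28.3% of all features) and replicate 1 lowest for 20 (20.4%). None was at 0 on any array, and their summed intensity ranged from 396653 to 570837 in WK2, 306048 to 920972 in D1 and 212838 to 530961 in Ctrl.

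S100a9, a calcium-binding protein of the neutrophil cytosol, had 162287, 97355 and 140187 on the WK2 arrays, 108549, 222582 and 68077 on the D1 arrays and 36088, 143987 and 69619 on the Ctrl arrays. Lcn2, a neutrophil granule lipocalin, had 40852, 23941 and 30068 on the WK2 arrays, 32529, 145461 and 19661 on the D1 arrays and 11960.2, 52166 and 12476 on the Ctrl arrays. D1 replicate 2 was their highest array and Ctrl replicate 1 their lowest, as for Nfe2. The erythroid and neutrophil deviations differed on D1 replicate 1, at 0.16 and -0.18. No neutrophil gene was called in any comparison, and the medians were 0.26 for WK2 minus Ctrl, 0.57 for D1 minus Ctrl and -0.31 for WK2 minus D1. The part of these cells in the erythroid values was not tested, nor was that of the lower neuron markers on D1 replicate 2.

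For 16 platelet and megakaryocyte genes the median deviations ran the same way, at 0.20, -0.13 and -0.09 on the WK2 arrays, -0.08, 0.32 and -0.23 on the D1 arrays and -0.34, 0.51 and -0.02 on the Ctrl arrays. Their summed intensity ranged from 54295 to 71973 in WK2, 49118 to 70888 in D1 and 43550.4 to 62938 in Ctrl, with none at 0. Pf4, a platelet chemokine, had 9328, 7572 and 10209.8 on the WK2 arrays, 10208, 12419.7 and 5454 on the D1 arrays and 2969, 8626 and 5728 on the Ctrl arrays. No gene of this list or of 14 B lineage precursor, 13 proliferation and 16 mature olfactory neuron genes was called in the main fit. Of 14 endothelial genes Sox17 fell in WK2 against Ctrl (-1.10, adjusted p = 0.0386), and of 10 osteoblast genes Dmp1 did (-1.53, adjusted p = 0.0352, limma). Each of these calls ended on leaving out Ctrl replicate 1 (adjusted p = 0.0919) or Ctrl replicate 3 (0.148), among others.

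**Figure D4:**
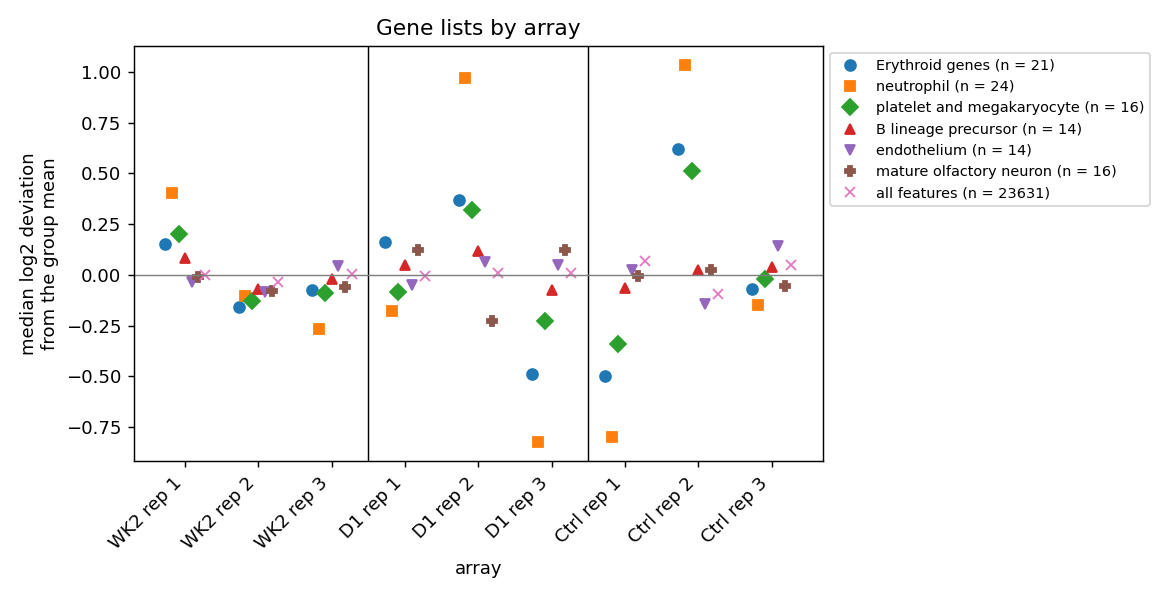
Median log2 deviation from the group mean (vertical axis) of each gene list on the 9 arrays (horizontal axis, WK2, D1 and Ctrl), with the number of genes in the legend. Erythroid, neutrophil and platelet genes are low on D1 replicate 3 and Ctrl replicate 1 and high on D1 replicate 2 and Ctrl replicate 2, where the median over all features stays between -0.09 and 0.07.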

How the data were processed

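The authors deposited 1 table of intensity values on a linear scale, 26423 probes by 9 arrays. Per the labels' protocols, 1 µg of Trizol-extracted total RNA with an RNA integrity number of at least 7 was amplified and labelled with Cy5. How the arrays were scanned, background-corrected and scaled is not stated there. Between 8 and 18 probes per array were below 0, as after subtraction of a background.

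Gene symbols came from the platform's annotation, updated with the RefSeq gene table of GRCm38.p6: 21876 had 1 gene symbol, 0 several and 4547 none, and 21825 matched RefSeq. The brightest of a gene's probes stood for it, which left 23631 features. Values were used as deposited, as log2(intensity + 50), a scale that understates differences of dim genes. One limma 3.58.1 model in R 4.3.3 covered the 9 arrays, with Benjamini-Hochberg adjustment over all features, and was tested on simulated data. With 3 arrays against 3, an exact permutation test cannot give a p below 0.1. The number of arrays limits the precision.

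All members were named. From the related lists the genes past the test were named. Up to 3 genes of highest mean could be named from a list, but some of these were left out, and from several lists no gene was named. Outside the members the 10 genes most like them were named. The members, lists and motifs were chosen with earlier results of these data known. Alternatives covered scaling, filters, probes, moderation, pseudocounts and each array left out.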

Additional observations from a re-analysis of the deposited data

How the results depend on the processing

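No erythroid gene was called under any of the 21 alternatives to the main limma fit, and the smallest adjusted p any of them gave was 0.0978, for Bpgm in WK2 against Ctrl without D1 replicate 1. The members' median log2 difference lay between 0.10 and 0.44 in WK2 against Ctrl, 0.08 and 0.22 in D1 against Ctrl, and -0.04 and 0.24 in WK2 against D1 over the 12 settings that kept all arrays. Leaving out 1 array each gave -0.22 to 0.52, -0.11 to 0.45 and -0.31 to 0.22, with the extremes from Ctrl replicates 1 and 2 and from D1 replicates 3 and 2. Without Ctrl replicate 1, 9 of 21 differences in D1 against Ctrl changed sign. A filter on the dimmest 25% of features kept 20 members, and on the dimmest 50% 11.

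In WK2 against Ctrl 380 features were called (102 higher), but 1263 after quantile normalization, 1514 (221 higher) after median centring, 609 after cyclic loess, 576 and 1135 without the dimmest 25% and 50%, 2738 with array weights, 777 and 131 with pseudocounts of 500 and 16, 0 in a fit of the 2 groups compared, and 1 to 953 with 1 array left out. In WK2 against D1 22 were called (7 higher), but 76 (15 higher), 49 and 51 under those 3 scalings, 36 without the dimmest 25%, 134 with array weights, 13 with the pseudocount of 500, 2 in the fit of the 2 groups, and 1 to 27 with 1 array left out. D1 against Ctrl had 0 throughout except 1 without Ctrl replicate 1 and 1 without Ctrl replicate 3. The calls of Cygb, Sox17 and Dmp1 ended under the replicate block and in the fit of the 2 groups (adjusted p 0.0765 to 0.112). Some list genes not called in the main fit were called in WK2 against Ctrl under other settings. Ldb1 was called under median centring (adjusted p = 0.0364), without the dimmest 50% (0.0439) and with array weights (0.0311, limma). Alas1, Mb, Gpx1, Urod and some genes of other lists were also called under some settings. In WK2 against D1 Sox17, Cygb and Alas1 were called under some settings. Only part of each list was followed in this way. The causes were not tested.

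The replicate numbers are shared between groups. The deviations of same-numbered arrays correlated at -0.28 to 0.14 over 9 pairs, against -0.34 to 0.31 over 18 other pairs, which gave no sign of pairing. So few arrays cannot show that the samples were not paired. With the replicate number as a block, 1, 0 and 8 features were called in WK2 against Ctrl, D1 against Ctrl and WK2 against D1, and 0 members, with the same medians of 0.20, 0.13 and 0.10.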
